A study of Mus musculus with 6 samples.

Results

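The erythropoietin receptor pathway was followed through 10 genes in fetal liver erythroid progenitors whose SCL protein cannot bind DNA normally. The genes were Epor, Jak2, Stat5a, Stat5b, Cish, Socs2, Socs3, Osm, Pim1 and Erfe (older symbols Fam132b and Ctrp15), and every probe annotated to them was taken, 16 of 46632 probes in all. A probe was tested where its detection p was below 0.01 on at least 3 of the 6 arrays. This left 9 of the 16 probes and 8 of the 10 genes, among 11578 probes and 6855 genes tested, with no testable probe for Stat5b or Socs3.

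The mutant cells had the SclRER/RER genotype, in which both copies of the gene encode a DNA-binding mutant of SCL (the product of Tal1), and the control cells were wild type (WT). Both had 3 arrays, and the labels give C57Bl/6 as the strain of both. All cells came from the livers of E12.5 embryos, were grown for 3 days in culture, and had cells bearing Ter119, a marker of maturing red cells, removed. The labels do not say whether arrays of a genotype came from separate embryos, litters or cultures, or how many embryos were pooled, so each p-value speaks of the spread among these samples alone, part of which may be technical. RNA was hybridised to single-colour Illumina bead arrays.

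Erythropoietin keeps committed red cell progenitors alive and dividing. Its receptor has no enzyme activity of its own and signals through the bound kinase Jak2, which phosphorylates the transcription factors Stat5a and Stat5b. Stat5 then switches on genes that include the feedback inhibitors Cish, Socs2 and Socs3, the survival kinase Pim1, the cytokine gene Osm and Erfe, whose hormone product raises the iron supply by lowering hepcidin in the liver. SCL binds DNA at E-boxes, usually in a complex that also contacts GATA sites.

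Both SCL and Stat5 act at short DNA motifs. The stretches from 250 bases before to 20 bases after the annotated start are shown for the receptor gene Epor, which fell, and for Cish, a Stat5 target that rose. Both are from RefSeq on GRCm38.p6, Epor on the minus strand at chr9:21963557-21963826 and Cish on the plus strand at chr9:107296409-107296678. Capitals mark E-boxes (CANNTG) and the Stat5 motif TTCNNNGAA. They also mark the letters GATA, which read TATC where the motif is on the opposite strand.
Epor: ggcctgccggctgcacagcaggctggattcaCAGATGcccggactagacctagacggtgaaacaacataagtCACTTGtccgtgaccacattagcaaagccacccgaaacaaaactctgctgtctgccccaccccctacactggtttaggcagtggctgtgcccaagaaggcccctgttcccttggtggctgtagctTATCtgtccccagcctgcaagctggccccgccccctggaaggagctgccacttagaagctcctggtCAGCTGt
Cish: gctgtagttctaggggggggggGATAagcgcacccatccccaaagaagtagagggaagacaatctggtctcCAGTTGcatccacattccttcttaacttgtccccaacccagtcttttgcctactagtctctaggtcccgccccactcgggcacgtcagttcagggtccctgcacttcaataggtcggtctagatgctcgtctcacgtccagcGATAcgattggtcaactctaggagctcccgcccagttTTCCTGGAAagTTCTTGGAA

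In Cish the Stat5 motif occurs as TTCCTGGAA at positions 1 to 9 and TTCTTGGAA at positions 12 to 20, counted from the annotated start as position 1. Cish also holds an E-box at -179 to -174 and GATA at -228 to -225 and at -37 to -34. In Epor the GATA motif reads on the strand opposite to the gene at positions -53 to -50, and E-boxes lie at -219 to -214, at -178 to -173 and at 14 to 19, with 2 more in the stretch that is not printed. Both strands were searched over the whole 300-base window, with any overlaps between motifs counted. The promoter table matched 8 of the 10 genes, and windows of Osm and Socs2 were not used here. Counting a gene where at least 1 of its windows held the motif, 2 of these 8 held the Stat5 motif (Cish and Socs3) and 3 held GATA (Epor, Stat5a and Cish). An E-box was held by 6 (Epor, Jak2, Stat5a, Stat5b, Cish and Pim1). The window of Erfe, which also rose, held none of these motifs. Across 32851 promoter windows of the same length, 8.3% held the Stat5 motif, 57.9% GATA and 72.3% an E-box. These are shares of single windows, whereas Stat5a, Stat5b and Pim1 had 2 windows each, so the gene counts are not like for like with them. A match describes these letters only, and no binding was measured.

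In SclRER/RER progenitors 4 of the 8 tested genes passed the limma test at an adjusted p below 0.05. Osm, Erfe and Cish rose and Epor fell, while Jak2, Stat5a, Socs2 and Pim1 did not pass. Over all 6855 genes 6.58% passed, 3.57% higher and 3.01% lower in SclRER/RER. The 8 genes had a median log2 difference of 0.36, against 0.02 over all genes tested, and a median absolute log2 difference of 0.51, against 0.15. The genotypes' values did not overlap for 6 of the 8 genes, against 25.4% of all genes. The 10 genes were chosen with results of these arrays known, so these shares describe them and are not independent evidence about the pathway.

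**Figure D1:**
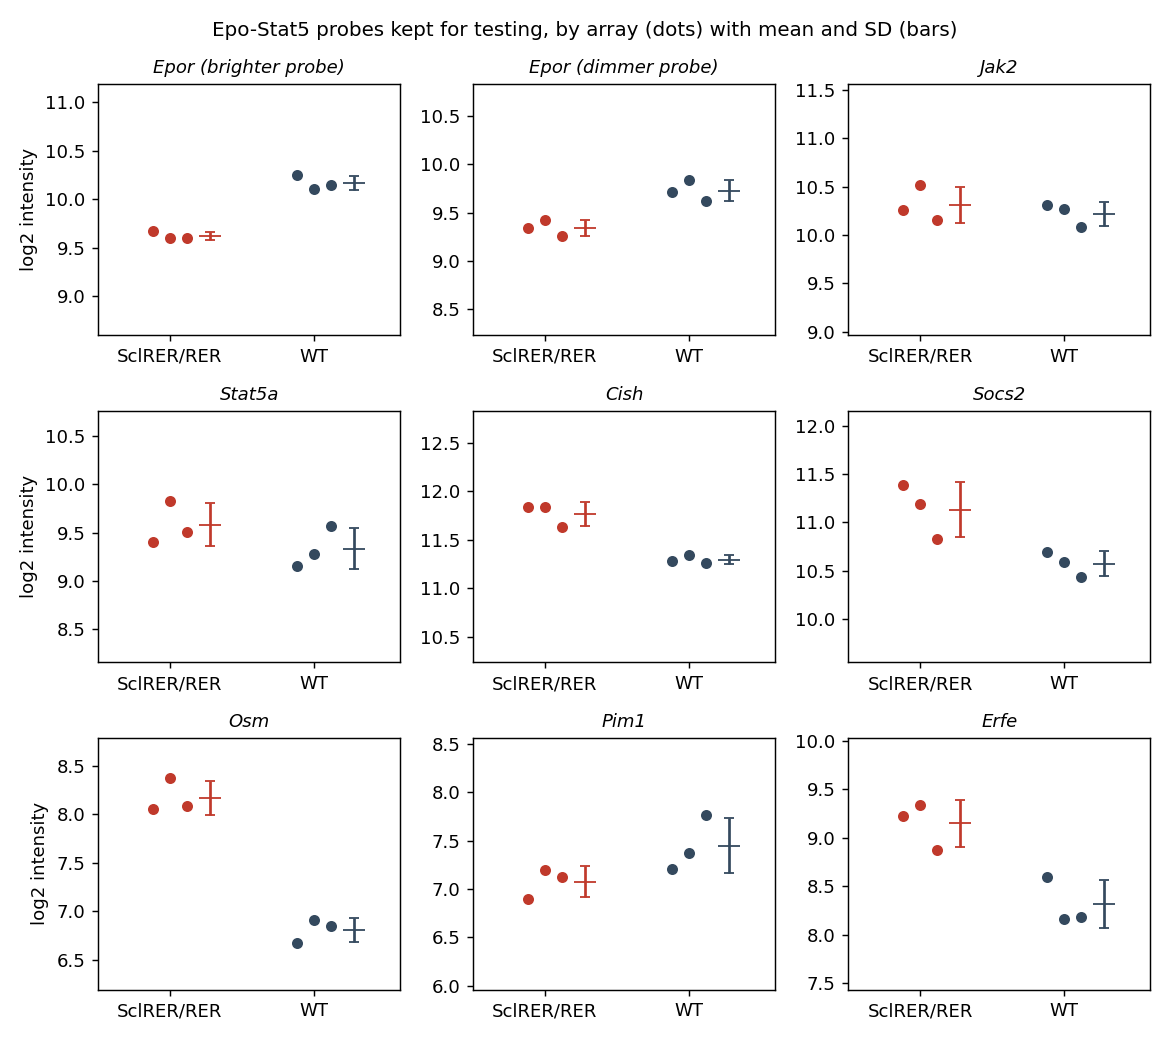
Log2 intensity (vertical axes, each spanning the same range) of the 9 tested probes on the 3 SclRER/RER arrays (red, left) and the 3 WT arrays (dark, right), with mean and SD beside the dots. Osm shows the widest gap between genotypes, and Jak2 and Stat5a show dots of both genotypes in the same range.

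Epor, the receptor at the head of the pathway, was lower in SclRER/RER. Its brighter probe (ILMN_2749650) read 9.67, 9.60 and 9.60 log2 intensity on SclRER/RER arrays 1, 2 and 3, against 10.24, 10.10 and 10.15 on WT arrays 1, 2 and 3. Every SclRER/RER array lay below every WT array, and the arrays within a genotype were close together. The log2 difference was -0.54 (SE 0.11, 95% confidence interval -0.79 to -0.30), which is 1.46-fold lower, with a limma adjusted p of 0.0199.

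The other Epor probe (ILMN_1226297) read 9.34, 9.42 and 9.26 in SclRER/RER and 9.72, 9.84 and 9.62 in WT. Its arrays did not overlap either, but its log2 difference of -0.38 (SE 0.12, limma adjusted p = 0.0945) did not pass, so the 2 probes point the same way and differ in their call. Before scaling between arrays, the brighter probe's signals overlapped, at 699 to 1175 intensity units in SclRER/RER and 1035 to 1294 in WT. The mean signal over all probes was 546 on SclRER/RER array 1, against 385 to 457 on the other 5 arrays. Both Epor probes were lower in SclRER/RER under median scaling as well as quantile normalization. The Epor call was lost without SclRER/RER array 2 (adjusted p = 0.0742), WT array 1 (0.0767), WT array 2 (0.0839) or WT array 3 (0.0805).

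Jak2, the kinase that Epor activates, had log2 intensities of 10.26, 10.51 and 10.15 in SclRER/RER and 10.31, 10.27 and 10.08 in WT on its 1 tested probe (ILMN_1245579). The genotypes overlapped. The log2 difference of 0.09 (SE 0.13, limma adjusted p = 0.793) had a 95% interval of -0.22 to 0.40, equal to 0.861-fold to 1.32-fold. The other 2 Jak2 probes were detected on no array.

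Stat5a read 9.40, 9.83 and 9.51 in SclRER/RER and 9.16, 9.28 and 9.57 in WT (ILMN_2670157). WT array 3 lay above 2 of the SclRER/RER arrays. The log2 difference of 0.25 (SE 0.16, 95% interval -0.11 to 0.61) did not pass, with a limma adjusted p of 0.46, and it was 0.12 without SclRER/RER array 2. The only probe of Stat5b, the second Stat5 protein, was detected on no array, with signals of 59.0 to 79.4 intensity units in SclRER/RER and 65.2 to 79.5 in WT. That leaves Stat5b mRNA without a usable value on this array, which does not show that it was absent.

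The feedback inhibitors carry SH2 and SOCS-box domains and damp signalling at the receptor. Cish, the member of this family best known as a Stat5 target, was higher in SclRER/RER, with log2 intensities of 11.84, 11.84 and 11.63 there and 11.28, 11.35 and 11.26 in WT (ILMN_2718330). The lowest SclRER/RER array stood 0.28 above the highest WT array. The log2 difference was 0.48 (SE 0.11, 95% interval 0.22 to 0.74), or 1.39-fold, with a limma adjusted p of 0.0442. The Cish call sat close to the threshold and was lost without SclRER/RER array 1 or 2 or any 1 of the WT arrays, with adjusted p between 0.0919 and 0.16. It was also lost with no detection filter (0.0514) and with the replicate number as a block (0.0681).

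Socs2, which also restrains growth hormone signalling, had log2 intensities of 11.38, 11.19 and 10.83 in SclRER/RER and 10.69, 10.60 and 10.43 in WT (ILMN_2628178). All SclRER/RER values were above all WT values, by 0.13 at the nearest pair, but they were spread over a wider range (SD 0.28 among 3 SclRER/RER arrays and 0.13 among 3 WT arrays). The log2 difference of 0.56 (SE 0.16, 95% interval 0.19 to 0.92) did not pass, with a limma adjusted p of 0.0824. It passed under 6 of 17 alternative settings, and without SclRER/RER array 3 the difference was 0.71 (adjusted p = 0.0192). A second Socs2 probe was detected on no array. The only probe of Socs3, a strong inhibitor of Jak kinases, was also detected on no array, with signals of 71.2 to 86.8 intensity units in SclRER/RER and 86.8 to 91.6 in WT.

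Osm, which encodes the secreted cytokine oncostatin M, had the largest difference of the 8 genes. Its tested probe (ILMN_1252325) read 8.05, 8.37 and 8.08 in SclRER/RER and 6.67, 6.91 and 6.85 in WT. The gap between the nearest arrays of the genotypes was 1.15 on the log2 scale, wider than the spread within each genotype. The log2 difference was 1.36 (SE 0.13, 95% interval 1.06 to 1.66), or 2.57-fold, with a limma adjusted p of 0.00062. Unscaled signals did not overlap either, at 295 to 416 intensity units in SclRER/RER and 164 to 206 in WT.

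The WT level of Osm was not far above the lowest detected signal of those arrays, which was 6.29 to 6.42 on the log2 scale. A dimmer Osm probe (ILMN_1226916) was detected on 2 of 3 SclRER/RER arrays and on no WT array, so the detection filter left it out. Without the filter this probe differed by 0.62 (limma adjusted p = 0.045), a difference that rests on WT values below detection. Its levels of 6.48, 6.44 and 6.34 in SclRER/RER, against 5.61, 5.85 and 5.93 in WT, lay in the same order as those of the tested probe. With WT set to the lowest detected signal, the SclRER/RER mean was 1.04-fold higher. That mean includes SclRER/RER array 3, where the probe was not detected, so the value is not a strict lower bound. The Osm call held under all 17 alternatives, with log2 differences of 0.97 to 1.42 and adjusted p between 0.000178 and 0.00628. The smallest of these differences came without background correction or from the authors' normalized values, which keep the background in the signal.

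Pim1, a serine/threonine kinase that supports survival, had log2 intensities of 6.90, 7.20 and 7.13 in SclRER/RER and 7.21, 7.37 and 7.76 in WT (ILMN_2702406). The genotypes were separated by 0.01 at the nearest pair. The log2 difference of -0.37 (SE 0.16, 95% interval -0.75 to 0.00) did not pass, with a limma adjusted p of 0.257, and it passed under 0 of 17 alternatives. Without WT array 3 it was -0.22.

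Erfe, the erythroid hormone gene, was higher in SclRER/RER, at 9.23, 9.34 and 8.88 log2 intensity, against 8.60, 8.16 and 8.19 in WT (ILMN_2672509). No array of one genotype reached the range of the other, and SclRER/RER array 3 and WT array 1 were the nearest pair, 0.28 apart. The log2 difference was 0.84 (SE 0.17, 95% interval 0.45 to 1.22), or 1.79-fold, with a limma adjusted p of 0.0225. The Erfe call was lost without SclRER/RER array 2 (adjusted p = 0.0829), WT array 2 (0.122) or WT array 3 (0.105), and with no detection filter (0.0985). A second Erfe probe was detected on no array.

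**Figure D2:**
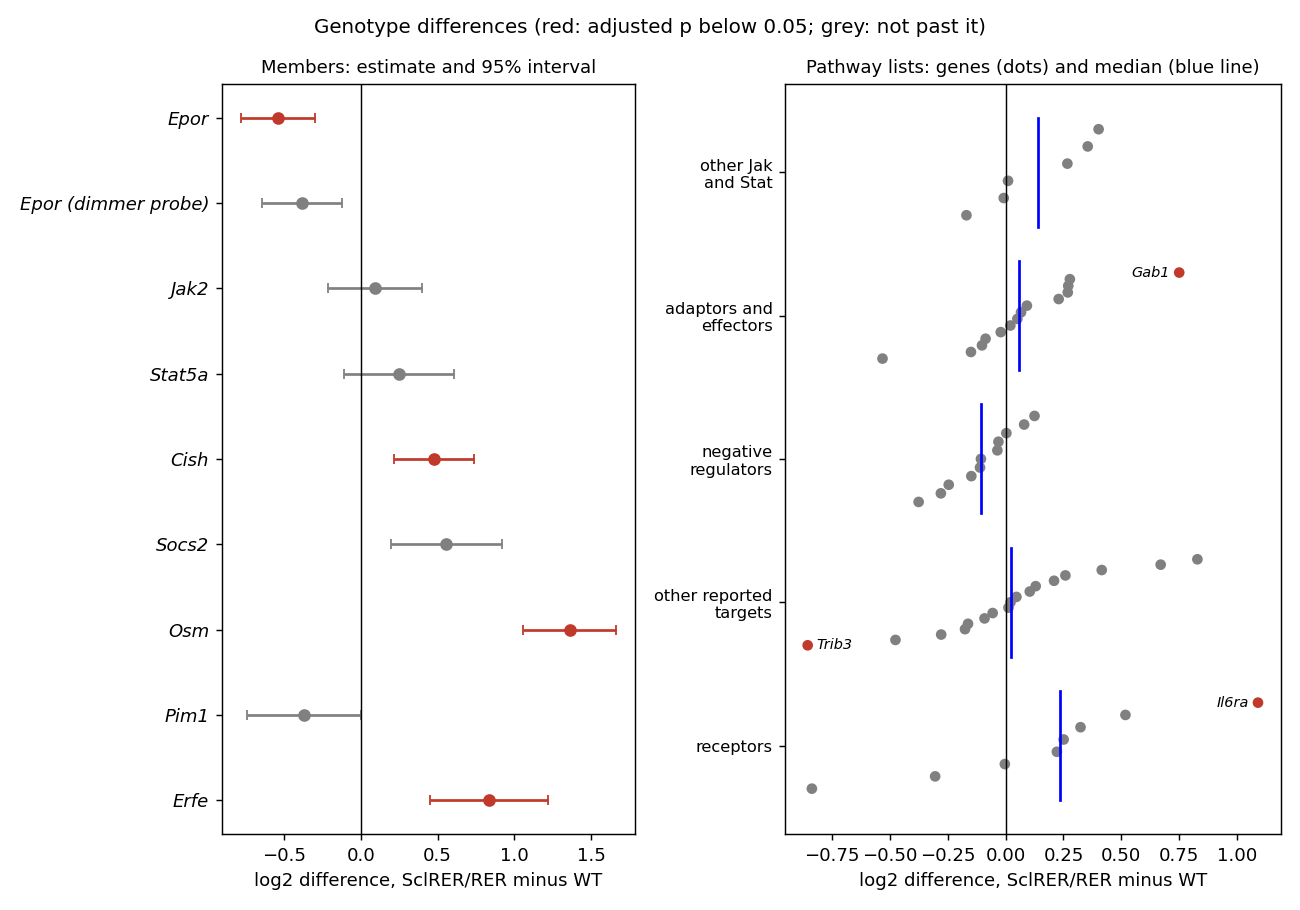
Left, log2 difference (SclRER/RER minus WT) of each tested probe of the 8 genes with its 95% confidence interval. Right, the same difference for each tested gene of 5 pathway lists (dots) with the list's median (blue line), where red marks the genes past the threshold, Gab1, Trib3 and Il6ra on the right.

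Other genes of the pathway were read from 5 lists holding 96 genes, of which 83 had a probe and 56 were tested. Of the 56, 2 rose, 1 fell and 53 did not pass, near the 6.58% of all genes, and their median log2 difference was 0.02, as over all genes. Of 6 other Jak and Stat genes tested, 0 passed (median 0.14). Stat3, which many cytokine receptors share, differed by 0.01 (SE 0.12), Tyk2, a Jak kinase, by 0.27 (SE 0.11), Stat6 by -0.17 (SE 0.13) and Jak3 by 0.40 (SE 0.15), with limma adjusted p between 0.164 and 0.979.

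Of 14 adaptors and effectors of the Epo receptor tested, 1 rose and 0 fell (median 0.06). Gab1, a docking protein that is phosphorylated below the receptor, rose by 0.75 (SE 0.12, limma adjusted p = 0.00753), with log2 intensities averaging 9.97 ± 0.14 in SclRER/RER cells and 9.22 ± 0.08 in WT cells (SD, n = 3 each). That call was lost without WT array 2 (adjusted p = 0.0572). The brightest others were close to no difference, at 0.09 for the adaptor Grb2, -0.09 for the kinase Btk, -0.02 for Akt2 and 0.07 for the exchange factor Vav1.

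Of 11 negative regulators tested, 0 passed (median -0.11). Ptpn6, the phosphatase SHP-1 that switches off Jak2 at the receptor, differed by -0.03 (SE 0.16), and Inpp5d, the inositol phosphatase SHIP1, by 0.00 (SE 0.12). Pias1 differed by 0.08 (SE 0.14) and Pias4 by -0.15 (SE 0.12).

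Of 17 other reported Stat5 or Epo target genes tested, 0 rose and 1 fell (median 0.02). The gene that fell was Trib3, a pseudokinase that is also a stress response gene, by 0.86 (SE 0.16, limma adjusted p = 0.018), with all 3 of its kept probes past the threshold. Its call was lost without SclRER/RER array 2 (adjusted p = 0.0675), WT array 1 (0.057), WT array 2 (0.067) or WT array 3 (0.0845), and with no detection filter (0.0793). Among the brightest, the transferrin receptor Tfrc differed by -0.48 (adjusted p = 0.105), the cell cycle gene Ccnd2 by 0.02 (0.958), the sialomucin gene Podxl by 0.42 (0.0799) and the survival gene Mcl1 by 0.21 (0.535). Podxl passed as higher under several alternatives, among them the authors' normalized values (0.0456), no background correction (0.0443) and an intensity trend (0.0228).

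Of 8 receptors tested, 1 rose and 0 fell (median 0.24). Il6ra, the alpha chain of the interleukin 6 receptor, was detected on 3 SclRER/RER arrays and on no WT array, so it entered the test through the genotype where it was high. It was at least 1.63-fold higher (measured means 7.07 in SclRER/RER and 5.98 in WT), with a limma adjusted p of 0.0214 when every gene was tested without the detection filter and 0.00324 with it. It had no test without SclRER/RER replicate 1, 2 or 3, where too few arrays detected it. Kit, the stem cell factor receptor, differed by -0.30 (adjusted p = 0.329), Ifngr2 by 0.22 (0.473), Csf2ra by 0.32 (0.244) and Ifngr1, the ligand-binding chain of the interferon gamma receptor, by -0.84 (0.0565). Ifngr1 passed as lower under 9 of the 17 alternatives, among them the authors' normalized values (0.0317) and no background correction (0.0309). Osmr, Il6st and Lifr, through which oncostatin M signals, were not among the tested genes.

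All 11 erythroid markers on the array were detected and tested, Gata1, Klf1 and Tal1 among them, and 1 of them, Epor itself, passed. Their median log2 difference was -0.23, 7 of the 11 were negative, and the genotypes' values did not overlap for 6, against 25.4% of all genes. With an intensity trend Klf1 (0.33, adjusted p = 0.0254) passed as higher and Rhag (-0.38, 0.0446) and Tfrc (-0.48, 0.0379) as lower, and Alas2 passed as lower without SclRER/RER array 3 (-0.84, 0.0204). In these bulk samples fewer cells of a type and less RNA per cell cannot be told apart. All 4 tested megakaryocyte markers fell, with a summed level over 9 markers of 742 to 990 intensity units in SclRER/RER and 1744 to 2135 in WT, and with Itgb3, Gp1bb and Gp6 detected on no array. Ppbp and Treml1 kept the call throughout, whereas Pf4 lost it without WT array 2 (adjusted p = 0.0996) or 3 (0.0811), under the replicate block (0.0533) and with no detection filter (0.129), and Vwf without WT array 2 (0.0551) or 3 (0.0545) and with no detection filter (0.0508). Of 7 tested neutrophil markers 3 fell, with summed levels of 4084 to 9284 in SclRER/RER and 6481 to 7216 in WT, and with Elane detected on no array. Camp (0.66, adjusted p = 0.283) and Ltf (0.30, 0.737) were positive without passing. Without SclRER/RER array 3 Camp passed as higher (1.02, adjusted p = 0.0348). Ctsg, detected on 1 of 3 SclRER/RER arrays, differed by -1.62, or by -1.14 with values raised to the lowest detected signal. It kept the call wherever it was tested. Mpo and Prtn3 lost theirs when SclRER/RER array 2 or any 1 of the WT arrays was dropped, with adjusted p of 0.0631 to 0.158 for Mpo and 0.0916 to 0.184 for Prtn3, and with no detection filter (0.0953 and 0.136), while Prtn3 sat at 0.050 when SclRER/RER array 3 was dropped. Of 9 macrophage markers on the array 8 were detected on no array, which does not show that such cells were absent. The 1 tested, Lyz2, read 9.38, 8.70 and 8.53 in SclRER/RER and 8.80, 8.74 and 8.59 in WT (difference 0.16, limma adjusted p = 0.765). The summed level of the 9 was 621 to 905 in SclRER/RER and 632 to 688 in WT. Of 9 hepatocyte markers 7 were detected on no array, Alb and Afp among them, 1 was tested and 0 passed. The tested one, Apoa1, read 9.70, 9.75 and 8.89 in SclRER/RER and 9.93, 9.97 and 9.91 in WT (difference -0.49, limma adjusted p = 0.264). The summed level was 743 to 1098 in SclRER/RER and 1217 to 1255 in WT. Like every sum given here, it includes the background of the probes that were never detected. Lymphoid markers (6 of 7) and endothelial and stromal markers (8 of 9) were mostly detected on no array, and 0 passed. Of 3 tested mast cell markers 1 rose, Cpa3, and the summed level was 1646 to 2093 in SclRER/RER and 1572 to 1613 in WT, with 5 of 9 detected on no array. Cpa3 was detected on 1 of 3 WT arrays and lost its call without WT array 2 (adjusted p = 0.0551) and with no detection filter (0.0734). The part of these cells in the values of Osm, Epor, Cish and Erfe was not tested.

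The genes whose levels followed each changed member most closely were found by the root mean square difference between log2 intensities over the 6 arrays, each gene centred on its own mean. For Epor these were C1galt1 (0.05), Tnfrsf13b (0.05) and Dync2h1 (0.05), where the median over all other tested genes was 0.32. For Osm they were Napsa (0.14), S1pr4 (0.14) and Ociad2 (0.14), with a median of 0.70. For Cish they were Rnf125 (0.05), Zfp592 (0.06) and Sdhc (0.06), with a median of 0.29, and for Erfe they were Dennd11 (0.09), Per2 (0.11) and Neil2 (0.11), with a median of 0.48. The choice fixes the sign of their differences, so none is read from it. Dennd11 and Neil2 were detected on 1 of 3 WT arrays and S1pr4 on 2.

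Changed genes can lie together on a chromosome, so the 5 nearest tested genes on each side of every member were read in the GRCm38.p6 order. Around Osm, on chromosome 11, 2 of 10 neighbours passed, both higher in SclRER/RER. Castor1, the arginine sensor of mTORC1 signalling and the next tested gene, rose by 0.88 (SE 0.12, limma adjusted p = 0.003). Sec14l2, 4 genes away, was detected on no WT array and so was tested through the genotype where it was high, at least 2.57-fold above WT. Around Erfe, on chromosome 1, 2 of 10 rose, the clock gene Per2 by 0.68 (SE 0.15, adjusted p = 0.0281) and Agap1 by 0.78 (SE 0.14, adjusted p = 0.0137). Per2 was thus both a near neighbour of Erfe and one of the 3 genes closest to it in pattern.

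Around Cish 1 of 10 neighbours rose, the adjacent Hemk1 (0.66, SE 0.16, adjusted p = 0.0424), and around Epor 0 of 10 passed. The neighbours of Jak2 and Socs2 held 0 changed genes, those of Stat5a 1 that fell, Atp6v0a1 (-0.70, SE 0.11, adjusted p = 0.00627), and those of Pim1 1, Fgd2, which was also detected on no WT array and tested through SclRER/RER alone, at least 2.04-fold above WT. The share of tested genes that passed was 10.6% on chromosome 1 (Erfe), 8.42% on chromosome 9 (Epor and Cish), 4.43% on chromosome 11 (Osm and Stat5a), 6.18% on chromosome 17 (Pim1), 6.51% on chromosome 19 (Jak2) and 5.07% on chromosome 10 (Socs2). The part of position in these differences was not tested.

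**Figure D3:**
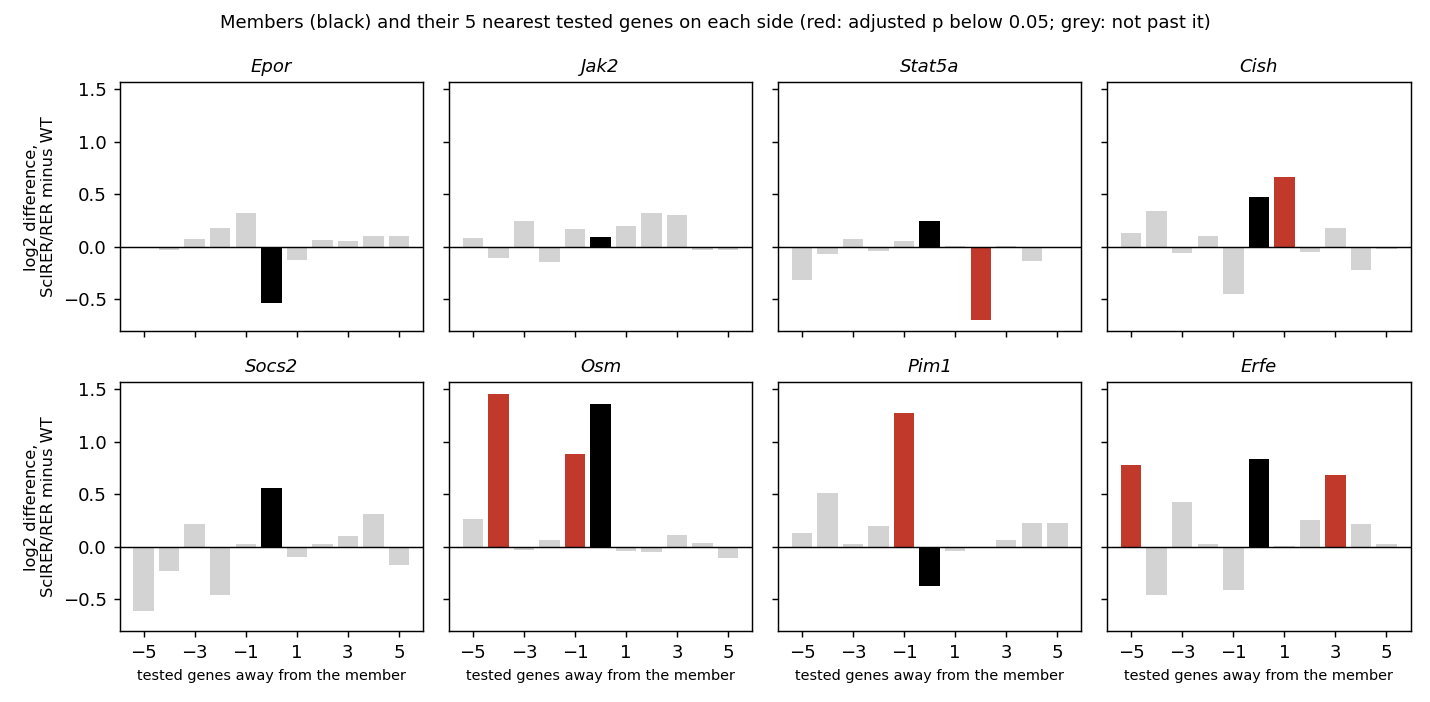
Log2 difference (SclRER/RER minus WT, vertical axis) of each of the 8 tested members (black, centre) and of the 5 nearest tested genes on each side in chromosome order (bars, horizontal axis in genes away from the member). Red bars passed the threshold and grey bars did not, with 2 red bars beside Osm and 2 beside Erfe and 0 beside Epor.

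**Figure D4:**
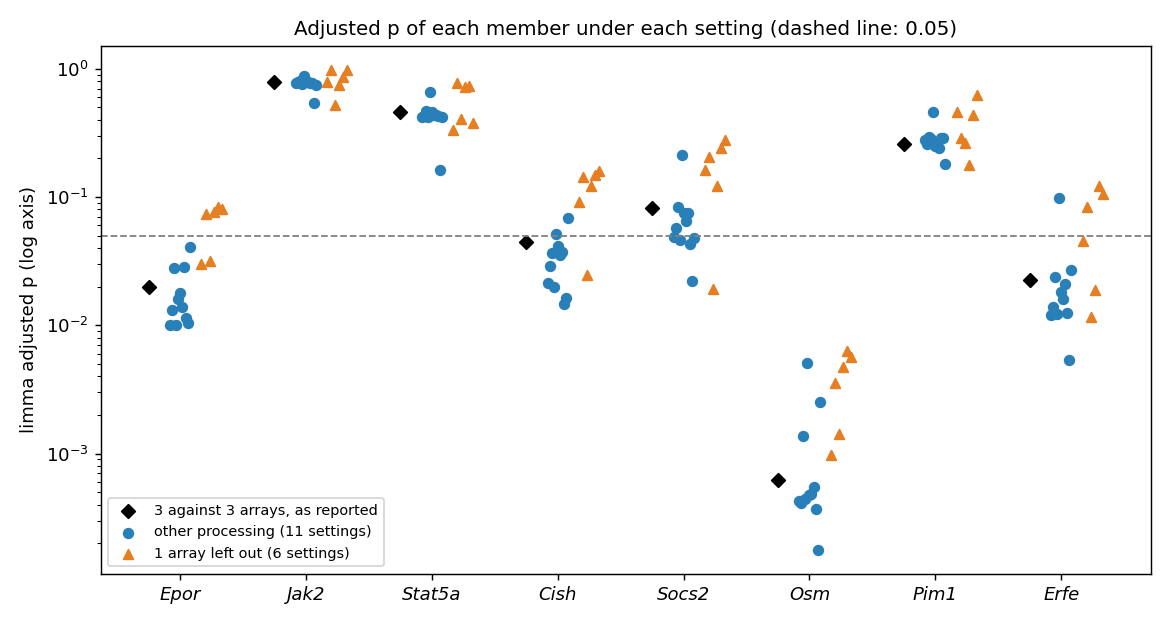
Limma adjusted p (log axis) of each of the 8 genes as reported (diamonds), under 11 other ways of processing (circles) and with each of the 6 arrays left out (triangles), where the dashed line marks 0.05. Osm stays below the line throughout, and Epor, Cish and Erfe cross it when single arrays are left out. Cish and Erfe also cross it with no detection filter, and Cish with the replicate block. Socs2 lies on both sides of the line, and Jak2, Stat5a and Pim1 stay above it.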

How the data were processed

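Per the file headers and the values, the authors' non-normalized table holds linear signal intensity values, not background-subtracted and not scaled between arrays. The deposited detection columns, headed as p-values, rise with the signal and were read as a fraction, 1 minus the detection p. The column of WT array 3 did not track its signals (Spearman correlation 0.899, against at least 0.996 elsewhere), so its probes were given the average score of WT arrays 1 and 2 at equal signal rank. The authors' deposited normalized intensity values, quantile normalized judging by the values, served as an alternative. The submitters' processing notes name limma without a role or version.

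In limma 3.58.1 (R 4.3.3), signals went through normexp background correction using the detection scores (offset 16), quantile normalization and a log2 transform. Genotype was the single term of the linear model (lmFit, eBayes, two-sided), with Benjamini-Hochberg adjustment over all 11578 kept probes. The fit was also run on simulated data with independent noise. The differences added there were larger than those of Epor, Cish and Erfe, so that run does not bear on calls of their size. A gene is its brightest kept probe. Where the arrays of only 1 genotype detected a probe, its fold is given against the lowest detected signal per array. It is a bound where every array of that genotype detected the probe. Between 11084 and 12678 probes were detected per array, and arrays correlated at 0.975 to 0.984 within SclRER/RER, 0.989 to 0.993 within WT and 0.959 to 0.973 across. The number of arrays limits the precision.

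Symbols come from the platform annotation, updated through a GRCm38.p6 gene table (29976 probes had 1 symbol, 10 several and 16646 none, and 29921 matched an identifier). No source used here states the build of the array design, so that table served for names and gene order. All 10 members are named. So is every pathway gene past the threshold, with up to 4 of the brightest per list, the 3 closest genes in pattern and the neighbours that passed. The members and lists were chosen with earlier results of these data known.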

Additional observations from a re-analysis of the deposited data

How the results depend on the processing

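Each result was recomputed under 17 alternatives, 6 of which left out 1 array. Leaving out an array gave 167 to 521 changed genes (451 as reported) and 1 to 5 changed members (4 as reported), with log2 differences of -0.57 to -0.50 for Epor, -0.01 to 0.17 for Jak2, 0.44 to 0.54 for Cish, 0.43 to 0.71 for Socs2, 0.74 to 0.98 for Erfe, 0.12 to 0.36 for Stat5a and -0.49 to -0.22 for Pim1. Osm was the 1 changed member when SclRER/RER array 2 or either of WT arrays 2 and 3 was left out, and 2 members passed without WT array 1. Changed genes numbered 237 when SclRER/RER array 2 was dropped, and 296, 167 and 184 when WT arrays 1, 2 and 3 were dropped in turn, all fits with fewer arrays. Jak2 changed sign, to -0.012, without SclRER/RER array 2. Array quality weights gave 704 changed genes. With no detection filter, which tests 17711 genes, 2 members passed, and Cish (0.48, adjusted p = 0.0514) and Erfe (0.84, adjusted p = 0.0985) missed the threshold. Socs2 passed without background correction (0.54, adjusted p = 0.0486), with the authors' normalized values (0.55, 0.0464), with an intensity trend (0.56, 0.0431) and with array weights (0.58, 0.0222). The cause of these changes was not tested. Same-numbered arrays correlated at 0.16, -0.03 and 0.07 in their deviations from the genotype means. Differently numbered arrays were not compared, so these values do not settle whether the replicate numbers of the titles pair the samples. With the replicate block 432 genes passed, Cish missed the threshold (0.48, adjusted p = 0.0681) and Socs2 passed (0.56, adjusted p = 0.0479), with no other member's call changed. Osm, Stat5a and Pim1 kept their direction and side of the threshold under all 17 alternatives. A slide block was not run, as headers and labels name 0 slides. Stat5b, Socs3 and the WT level of Osm are limited by signal near background.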

Other observations

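A pair of immediate early genes that Epo can induce, Egr1 and Fos, stood apart on SclRER/RER array 3, and both were picked out after their values were seen. On the log2 intensity scale Egr1 read 7.72, 7.92 and 9.86 on SclRER/RER arrays 1, 2 and 3, against 8.51, 8.50 and 8.17 on the WT arrays. It averaged 8.50 ± 1.18 on the SclRER/RER arrays and 8.40 ± 0.19 on the WT arrays (SD, n = 3 each), with a log2 difference of 0.10 (SE 0.48, limma adjusted p = 0.945). Fos read 9.27, 9.39 and 10.63 in SclRER/RER and 8.92, 9.05 and 8.84 in WT, that is 9.76 ± 0.76 in SclRER/RER and 8.93 ± 0.11 in WT, with a difference of 0.83 (SE 0.32, limma adjusted p = 0.189). Ccnd1, which encodes cyclin D1, read 9.14, 8.35 and 7.82 in SclRER/RER and 7.88, 7.63 and 7.79 in WT, that is 8.44 ± 0.66 in SclRER/RER and 7.77 ± 0.12 in WT, with a difference of 0.67 (SE 0.29, limma adjusted p = 0.241). None of these 3 genes passed with all arrays, and Ccnd1 passed without SclRER/RER array 3 (0.98, adjusted p = 0.0414). All 7 tested neutrophil markers were likewise highest on SclRER/RER array 1 and lowest on array 3, though Ctsg was detected on only 1 of these arrays. Among them, S100a8 read 12.03, 11.06 and 10.75 on SclRER/RER arrays 1, 2 and 3, against 11.52, 11.45 and 11.33 in WT. The difference in spread between the genotypes was not tested.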
